A study of Mus musculus with 4 samples.

Results

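The genes described here are 10 mouse long noncoding RNA (lncRNA) genes, chosen by name. They are the nuclear-retained lncRNAs *Malat1* and *Neat1* and 8 noncoding snoRNA host genes, *Gas5*, *Snhg1*, *Snhg3*, *Snhg5*, *Snhg6*, *Snhg8*, *Snhg12* and *Snhg17*. They are 10 of the 56748 gene IDs in the count files, and 8 of them had enough reads to be among the 8670 genes tested. *Snhg3* and *Snhg6* were not tested. Polyadenylated RNA of 4 cultures of C2C12, an established mouse myoblast line, was read directly on nanopore flow cells and counted per gene. All cultures were labelled as wild type, were kept in growth medium and carried a plasmid that expresses an eGFP reporter together with shRNA. In 2 of them this was a scrambled shRNA (scrambled 1 and 2), and in the other 2 it was a mixture of 3 shRNAs against *Hnrnpl* (knockdown 1 and 2). Cells were selected with puromycin, and the libraries of a group are different passages of 1 stable line, so an effect of the shRNA and a difference between the selected lines cannot be told apart. The p-values measure only the spread between such passages. Batch 1 holds the libraries numbered 1 and batch 2 those numbered 2, and values of a group are given in that order.

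MALAT1 and NEAT1 are lncRNAs that stay in the nucleus. MALAT1 gathers at nuclear speckles, where splicing factors are stored, and its mature end is cut by RNase P rather than polyadenylated, with a genomically encoded run of A that folds into a protective triple helix. NEAT1 is the scaffold of paraspeckles and is made as a short polyadenylated form and a long form that ends like MALAT1. The host genes carry small nucleolar RNAs (snoRNAs), which guide chemical modification of ribosomal RNA, in their introns. Their spliced exons code for no protein, often start with the pyrimidine tract of ribosomal protein mRNAs and are often degraded by nonsense-mediated decay. hnRNP L, the product of the gene targeted here, binds RNA rich in CA.

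Stretches of 30 bases are printed for the features that tie these genes to that background. The first lines are from GRCm39 with the GENCODE vM39 annotation and read along the transcript. In *Malat1* the capitals mark the longest run of A of the gene, 12 bases at chr19:5846007-5846036 on the reverse strand, 299 bases from the 3′ end of the gene. In *Neat1* the capitals mark the longest CA repeat, 18 bases at chr19:5876576-5876605 on the reverse strand, 1846 bases from the 3′ end. These stretches lie within exons of 1 of the 23 annotated *Malat1* transcripts and 1 of the 24 *Neat1* transcripts.
Malat1: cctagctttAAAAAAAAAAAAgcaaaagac
Neat1: ctctctCACACACACACACACACAgagttt

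The next lines are the 30 bases around an annotated start, 15 on each side, from RefSeq on GRCm38.p6, for the host genes with a run of at least 5 C or T that begins with C. The capitals mark that run, which was searched on the strand of the gene. The windows are chr3:123508322-123508351 on the reverse strand (*Snhg8*), chr4:132308663-132308692 on the forward strand (*Snhg12*), chr1:161035151-161035180 on the forward strand (the second start of *Gas5*), chr9:88522883-88522912 on the reverse strand (*Snhg5*) and chr4:132353672-132353701 on the reverse strand (*Snhg3*). The run of *Snhg5* begins 9 bases after the annotated start. No such run was found at the first start of *Gas5*, chr1:161034586-161034615, or in the windows of *Malat1*, *Snhg1* and *Snhg17*, and 36.4% of all 32851 windows in the table hold one. Windows were found for 8 of the 10 genes, without *Neat1* and *Snhg6*.
Snhg8: gcaccgttcagaagtCTCTTTggctgcgat
Snhg12: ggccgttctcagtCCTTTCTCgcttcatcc
Gas5: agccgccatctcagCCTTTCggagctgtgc
Snhg5: gagctgcggtgaaccgggctcgttCTTTTa
Snhg3: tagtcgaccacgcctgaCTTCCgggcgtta

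The 4 libraries had from 1229424 to 1676911 reads counted on genes. A count of 0 allows up to 3 counts, or between 1.79 and 2.44 CPM (counts scaled to the same total in each library), and such limits and the intervals of counts cover counting error only. *Hnrnpl* itself had 358 and 656 reads in the scrambled libraries against 242 and 258 in the knockdown. Its log2 fold change was -0.78 (SE 0.18, adjusted p = 0.0112 in edgeR's quasi-likelihood test with Benjamini-Hochberg adjustment). Of 13 myoblast markers, 9 had reads, 6 were tested and 4 fell (*Des*, *Cdh15*, *Chrna1* and *Ncam1*), while *Met* was at 0.53 (adjusted p = 0.0599 from edgeR) and *Myf5* at -0.16 (0.615). *Myog*, *Cav3*, *Pax7* and *Pax3* were at 0 in every library and *Myod1* had 1 read in all. The summed markers made 773 and 915 CPM in the scrambled libraries against 573 and 502 CPM in the knockdown. Fibroblast markers made 860 and 641 against 590 and 372 CPM (4 of 8 with reads, *Col1a2* called lower at -1.37) and macrophage markers from 22.3 to 41.5 CPM (4 of 7 with reads, *Ptprc*, *Adgre1* and *Itgam* at 0). Endothelial and adipocyte markers stayed at or under 1.19 CPM. Mitochondrially encoded genes took 5.73% and 5.42% of the counts in the scrambled libraries against 7.30% and 6.70% in the knockdown. With the mitochondrially encoded genes left out before scaling, *Neat1* was at 0.61 (adjusted p = 0.0285 from edgeR) and the members called were again 1 higher and 0 lower. The part of the marker shifts in the results was not tested, and in bulk RNA fewer cells of a type and less RNA per cell cannot be told apart.

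*Neat1* rose in the knockdown and was the 1 gene among the 10 that passed the thresholds, which were an adjusted p below 0.05, a log2 fold change beyond 0.5 in size and a mean normalized count above 10. None of the 10 passed them in the lower direction in this fit or in either DESeq2 fit, while *Snhg5* did so in edgeR with the batch as a replicate block and with other filters. Over all 8670 genes 5.55% were called, 2.33% higher and 3.22% lower. The knockdown libraries of *Malat1* also lay above those of the scrambled group, and those of *Snhg5* below, but neither gene passed. The other 5 tested host genes overlapped between the groups. Of all genes tested, 26.4% were separate and higher in the knockdown and 26.0% separate and lower, so separation of 2 libraries from 2 was common. An unadjusted p under 0.05 was found for *Neat1*, *Malat1* and *Snhg5*, 3 of the 8 members tested, and for 21.8% of all genes tested. The smallest p that an exact permutation test of 2 against 2 libraries allows is 0.333, so the tests here are those of the model fitted across all genes.

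**Figure D1:**
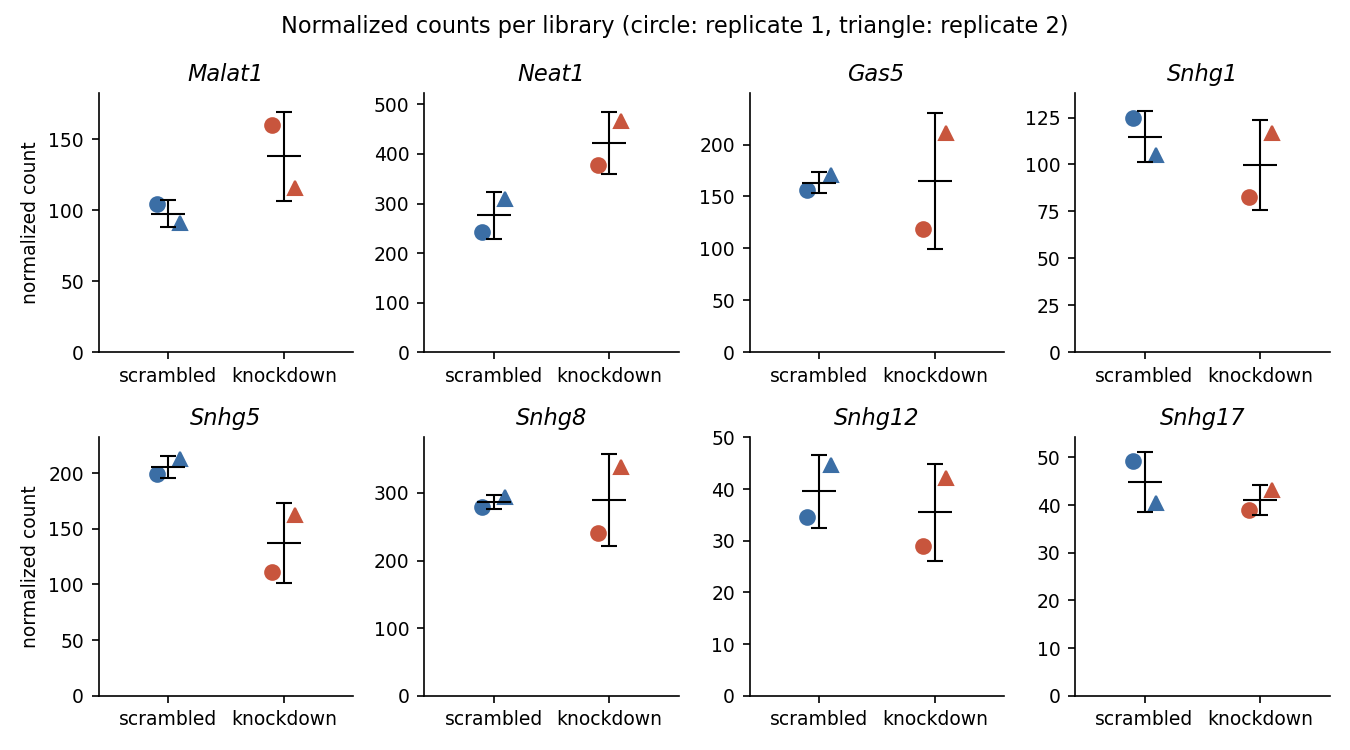
Normalized counts (TMM-scaled to an average library) of the 8 tested genes in the 4 libraries, with circles for replicate 1, triangles for replicate 2, a wide line at the mean of each group and bars of 1 SD (n = 2). *Neat1* and *Malat1* are higher in both knockdown libraries, *Snhg5* is lower in both, and for the remaining host genes the scrambled values lie close to or between the knockdown values.

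*Neat1* (ENSMUSG00000092274.5) lies on chromosome 19 of GRCm39 from 5874736 to 5897132 on the reverse strand. It had 232 reads in scrambled 1, 368 in scrambled 2, 380 in knockdown 1 and 399 in knockdown 2. The raw counts of scrambled 2 and knockdown 1 were close, but scrambled 2 is the deepest library, and as normalized counts the values were 243, 310, 379 and 466. Every knockdown library was then above every scrambled library. The scrambled mean was 276 ± 47.2 (SD, n = 2) and the knockdown mean 422 ± 62.0 (SD, n = 2). The fitted fold was 1.52. The log2 fold change was 0.61 (SE 0.16, 95% interval 0.27 to 0.94, adjusted p = 0.0283 from edgeR's quasi-likelihood test). Within batch 1 the log2 ratio of knockdown to scrambled was 0.64, and within batch 2 it was 0.59. The call was lost in DESeq2 with a parametric fit (adjusted p = 0.205) and when scrambled 1 (adjusted p = 0.193), knockdown 1 (0.149) or knockdown 2 (0.169) was left out, with log2 fold changes between 0.45 and 0.79 over the fits without 1 library. In such fits the group with 1 library is assumed to vary like the other group. In 9 of 13 alternative settings the adjusted p stayed under 0.05. DESeq2 with a local fit was among them, with an adjusted p of 0.0485 from its Wald test, close to the threshold.

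*Malat1* (ENSMUSG00000092341.5) lies on the same strand from 5845717 to 5853602, with 21133 bases between the genes. It had 100 and 108 reads in the scrambled libraries against 161 and 99 in the knockdown. As normalized counts these were 105, 90.9, 160 and 116, so the knockdown libraries were the higher ones, with knockdown 2 only slightly above scrambled 1. The scrambled mean was 97.8 ± 9.79 (SD, n = 2) and the knockdown mean 138 ± 31.6 (SD, n = 2). The log2 fold change was 0.51 (SE 0.19, 95% interval 0.12 to 0.90), and the adjusted p of 0.109 from edgeR missed the threshold. The batches gave log2 ratios of 0.62 and 0.35. Without knockdown 1 the log2 fold change was 0.25, and without knockdown 2 it was 0.72 with an adjusted p of 0.0460 from edgeR, so that *Malat1* and not *Neat1* was called, in a fit where the spread of the knockdown rests on the scrambled libraries. The library kit ligates its adapter to poly(A) ends, and MALAT1 matures without a poly(A) tail, so the whole pool of this RNA was not measured. The same limit holds for the long form of NEAT1, and the counts per gene do not separate the forms of *Neat1*. *Malat1* and *Neat1* together took 239 and 284 CPM in the scrambled libraries against 394 and 405 CPM in the knockdown. The summed normalized counts averaged 374 ± 37.4 (SD, n = 2) in the scrambled libraries and 561 ± 30.4 (SD, n = 2) in those of the knockdown, which is 49.9% higher.

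Most neighbours of both genes had log2 fold changes below 0. Of the 56 tested genes within 1000 kb of *Neat1*, with *Malat1* left out, 46 were below 0 and 10 above it, and their median was -0.44. On all of chromosome 19 the median was -0.23 and 74.8% of the tested genes were below 0, against 50.1% of all genes tested. In the same window 55 of the 56 were below *Neat1*, as were 97.0% of chromosome 19 and 92.8% of all genes tested. Only *Bbs1*, with 8 and 8 reads against 10 and 13, was above *Neat1* in this window, at 0.72 (SE 0.47, adjusted p = 0.387 from edgeR), and within 500 kb all 39 tested neighbours were below it. Apart from *Malat1*, the tested gene nearest to *Neat1* was *Slc25a45*, 30649 bases away. *Slc25a45* had 12 and 19 reads in the scrambled libraries against 6 and 10 in the knockdown (log2 fold change -0.73, SE 0.45, adjusted p = 0.366 from edgeR). Around *Malat1* the median of 56 tested neighbours was -0.43 and 45 of them were below 0. These are largely the same genes as those around *Neat1*, since the windows overlap almost wholly. Below *Malat1* itself were 54 of the 56, beside 95.8% of chromosome 19 and 89.7% of all genes tested. *Ehbp1l1*, 69222 bases away, fell by 0.83 on the log2 scale (SE 0.18, adjusted p = 0.00895 from edgeR) with 129 and 211 reads in the scrambled libraries against 86 and 78 in the knockdown. With the median of each chromosome removed, the log2 fold change was 0.83 for *Neat1* (adjusted p = 0.00379 from edgeR) and 0.74 for *Malat1* (adjusted p = 0.0301), and both were called. This removal centres each chromosome on its own tested genes and so measures a member against its chromosome.

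**Figure D2:**
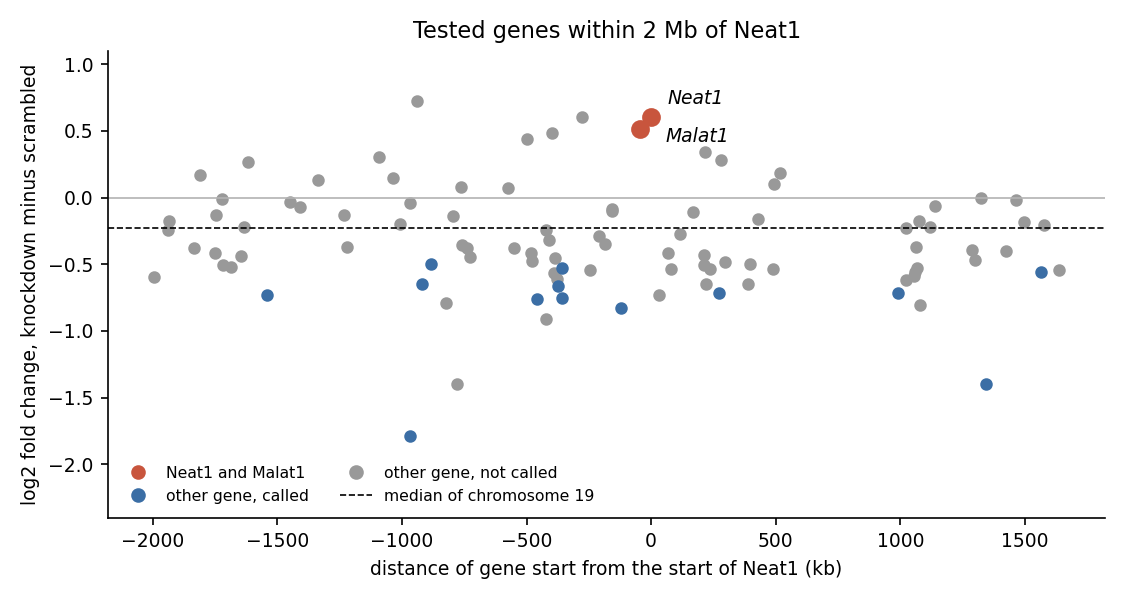
Log2 fold change of knockdown minus scrambled against distance from the start of *Neat1* in kb, for the tested genes within 2000 kb. *Neat1* (0.61) and *Malat1* (0.51) are in red, other called genes in blue and other genes in grey, with the chromosome 19 median of -0.23 as a dashed line. Most of the neighbours lie below 0.

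The letters CACACACA, a CA repeat of the kind that hnRNP L is known to bind, were counted in the joined exons of each gene on its own strand. *Neat1* held 9 such matches, counted without overlap, or 0.402 per kb, against 0.142 per kb over all genes tested. Its joined exons cover the whole span of the gene, 22397 bases. How many of the matches lie in the short polyadenylated form was not counted. The other 9 members held 0. Of 216 tested genes within 20% of the exon length of *Neat1*, 81.0% held at least 1 match and 6.94% held at least as many as *Neat1*. Over all genes tested 38.7% held at least 1. A match is a string of letters and not a site of binding, and absence of these letters says nothing of hnRNP L.

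*Snhg5* (ENSMUSG00000097195.12, chromosome 9 from 88377321 to 88405615, reverse strand) hosts the box C/D snoRNAs *Snord50a* and *Snord50b*. It had 190 and 253 reads in the scrambled libraries against 112 and 139 in the knockdown, or 199, 213, 112 and 162 as normalized counts. Both scrambled libraries were above both knockdown libraries. The scrambled mean was 206 ± 9.84 (SD, n = 2) and the knockdown mean 137 ± 36.0 (SD, n = 2). The fitted fold was 0.661. The log2 fold change was -0.60 (SE 0.18, 95% interval -0.97 to -0.23), and the adjusted p of 0.0518 from edgeR lay just outside the threshold. With the batch number as a replicate block the adjusted p was 0.0447 and *Snhg5* was called lower. The batches gave log2 ratios of -0.83 and -0.39. The call was also gained with no filter (adjusted p = 0.0207) and with at least 10 counts in every library (0.0391), whereas DESeq2 gave 0.176 with a local and 0.491 with a parametric fit. With 1 library left to stand for a group, the adjusted p was 0.0419 without scrambled 1, 0.0145 without knockdown 2, 0.129 without scrambled 2 and 0.390 without knockdown 1, where the log2 fold change was -0.35. With the chromosome medians removed it was -0.23 (adjusted p = 0.620 from edgeR), since the median of chromosome 9 was -0.37. The 3 tested genes within 1000 kb had a median of -0.01 and the 10 within 2000 kb a median of -0.22, and the nearest, *Syncrip*, was at -0.24.

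The snoRNAs of *Snhg5* and *Snhg8* are shown by their end sequences on GRCm39, since they carry the boxes by which these RNAs are recognised. Capitals mark box C (TGATGA) and box D (CTGA) in *Snord50a* at chr9:88403582-88403653 and *Snord50b* at chr9:88403850-88403921, both on the reverse strand, and the ACA box in *Snora24* at chr3:123301586-123301715 on the reverse strand.
Snord50a and Snord50b, first 30 bases: agtctaTGATGAtcctatcccgaacctgaa
Snord50a, last 30 bases: aaccatacttacggatctggcttCTGAgat
Snord50b, last 30 bases: aaccataattacggatctggcttCTGAgat
Snora24, last 30 bases: accagattctgacttgagcaagtgACAttc

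*Gas5* (ENSMUSG00000053332.15, chromosome 1 from 160861793 to 160866118, forward strand) contains 10 annotated snoRNA genes. It had 149 and 203 reads in the scrambled libraries against 119 and 181 in the knockdown. As normalized counts these were 156, 171, 119 and 212, so both the lowest and the highest value were knockdown libraries. The means were 163 ± 10.4 (SD, n = 2) and 165 ± 65.7 (SD, n = 2), and the log2 fold change was -0.00 (SE 0.20, 95% interval -0.43 to 0.43, adjusted p = 0.999 from edgeR). The interval leaves room for changes of either sign.

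*Snhg1* (ENSMUSG00000108414.3, chromosome 19 from 8700319 to 8703812, forward strand), with 8 snoRNA genes, had normalized counts of 125 and 105 in the scrambled libraries against 82.7 and 117 in the knockdown. The groups overlapped, and the log2 fold change was -0.21 (SE 0.19, 95% interval -0.60 to 0.19, adjusted p = 0.565 from edgeR). The value is close to the median of its 19 tested neighbours, -0.19, and to that of chromosome 19. *Snhg1* shares 743 exon bases with *Slc3a2* on the opposite strand (log2 fold change -0.09), and the strand setting of the counting is not given in the sources used here.

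*Snhg8* (ENSMUSG00000104960.3, chromosome 3 from 123301192 to 123302578, reverse strand) hosts *Snora24*, a box H/ACA snoRNA. Its normalized counts were 280 and 294 in the scrambled libraries against 241 and 338 in the knockdown, with the scrambled libraries inside the range of the knockdown. The log2 fold change was 0.01 (SE 0.16, 95% interval -0.33 to 0.35, adjusted p = 0.988 from edgeR).

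*Snhg12* (ENSMUSG00000086290.11, chromosome 4 from 132035905 to 132038762, forward strand), with 5 snoRNA genes, had only 33 and 53 reads in the scrambled libraries against 29 and 36 in the knockdown. Its log2 fold change was -0.18 (SE 0.28, 95% interval -0.78 to 0.41, adjusted p = 0.754 from edgeR). *Snhg17* (ENSMUSG00000085385.9, chromosome 2 from 158195620 to 158204194, reverse strand), with 3 snoRNA genes, had 47 and 48 reads in the scrambled libraries against 39 and 37 in the knockdown. Its log2 fold change was -0.12 (SE 0.25, 95% interval -0.65 to 0.41, adjusted p = 0.831 from edgeR). In both genes the normalized counts of the groups overlapped, and at these counts both intervals include 0 as well as the log2 fold change of *Snhg5*, -0.60.

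*Snhg3* (ENSMUSG00000085241.8, chromosome 4 from 132075325 to 132080997, reverse strand) is listed at 0 in all 4 libraries. In the GENCODE vM39 annotation 64.2% of its exon bases are also exon bases of other genes on the same strand, 633 of them of *Rcc1*, the nucleotide exchange factor of the GTPase Ran. Up to 16.5% of all reads in a library were set aside as ambiguous between genes. A further 22.7% to 23.8% were set aside for too low alignment quality. How many of these lie on *Snhg3* was not tested, and the count of 0 is not read as absence. *Rcc1* had 127 and 165 reads in the scrambled libraries against 119 and 108 in the knockdown (log2 fold change -0.15, SE 0.16, adjusted p = 0.630 from edgeR). *Snhg6* (ENSMUSG00000098234.9, chromosome 1 from 9926809 to 10014504, reverse strand) had 1 read in scrambled 1, scrambled 2 and knockdown 1 and 0 in knockdown 2, under the limit that a count of 0 allows. It has 55 annotated transcripts, and its exons share no same-strand bases with another gene apart from *Snord87*. No fold is given for either gene.

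**Figure D3:**
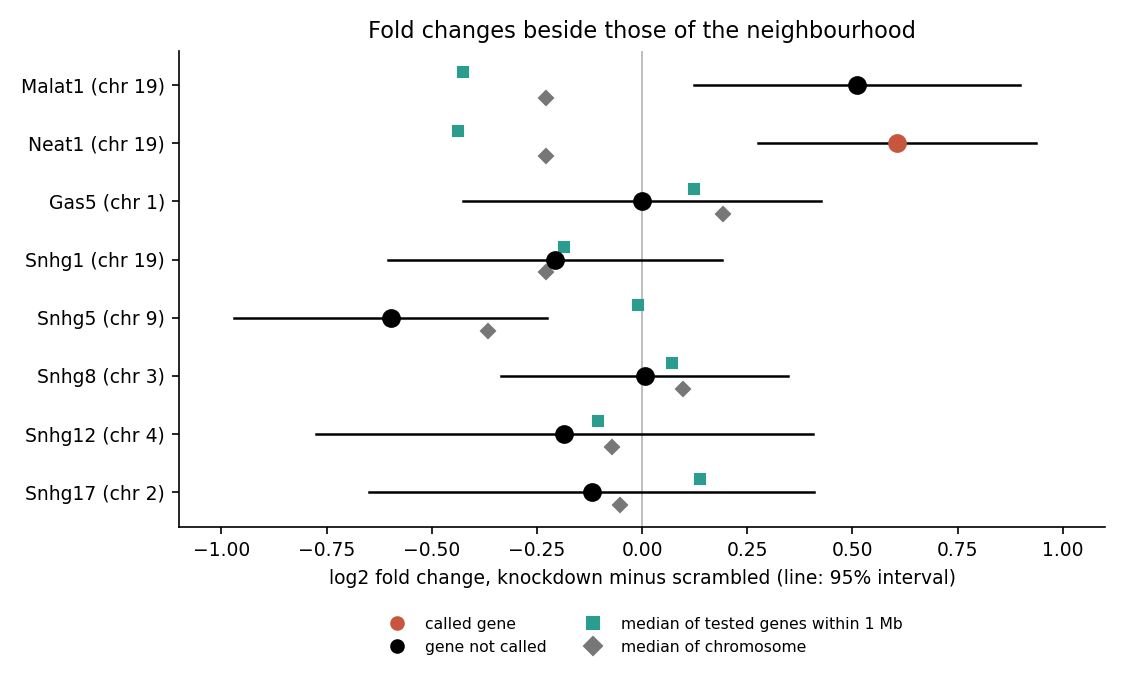
Log2 fold change of knockdown minus scrambled with its 95% interval for the 8 tested genes, with the called gene, *Neat1*, in red. Squares give the median of the tested genes within 1000 kb and diamonds that of the chromosome, which lie below 0 for *Malat1* and *Neat1* while both intervals lie above 0.

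The 8 host genes were also summed within each library. They took 581 CPM (95% interval 541 to 622) in scrambled 1, 616 (579 to 655) in scrambled 2, 455 (420 to 492) in knockdown 1 and 636 (592 to 682) in knockdown 2. Knockdown 1 was lower than every other library, and the interval of knockdown 2 overlapped those of the scrambled libraries. The summed normalized counts averaged 856 ± 17.8 (SD, n = 2) in the scrambled libraries and 768 ± 206 (SD, n = 2) in those of the knockdown, a log2 ratio of -0.16 that is smaller than the spread between the knockdown libraries. It was -0.44 within batch 1 and 0.07 within batch 2, and -0.25 over both when *Snhg8*, which has the most reads, was left out. All 6 tested host genes had a higher normalized count in knockdown 2 than in knockdown 1, by 0.15 (*Snhg17*) to 0.83 (*Gas5*) on the log2 scale with a median of 0.52, while 49.8% of all genes tested did. In the scrambled libraries 4 of the 6 were higher in scrambled 2. Of 18 ribosomal protein genes that host snoRNAs, 16 were higher in knockdown 2 (median 0.24), and so were 16 of 18 genes for snoRNP proteins and their assembly (median 0.20). In the scrambled libraries 5 of these ribosomal protein genes (median -0.16) and 10 of the snoRNP genes (median 0.01) were higher in scrambled 2. Of all 120 tested lncRNA genes, 57.5% were higher in knockdown 2 (median 0.17). Among the 141 protein-coding hosts outside the ribosomal protein genes the share was 53.9% (median 0.02).

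**Figure D4:**
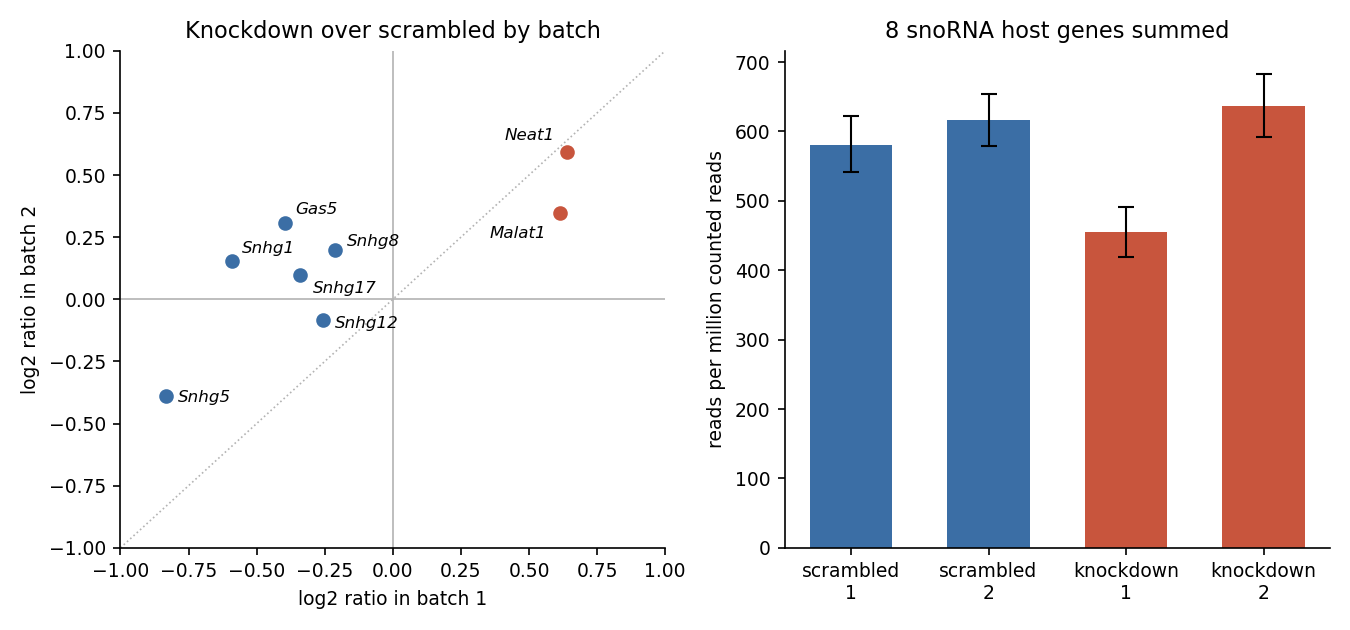
Left, log2 ratio of knockdown to scrambled normalized counts in batch 2 against batch 1, with a dotted line of equal ratios and host genes in blue. Right, CPM of the 8 summed host genes in each library with 95% counting intervals. *Neat1* and *Malat1* lie above 0 in both batches, all 6 host genes lie to the left of the dotted line, and the summed level is lowest in knockdown 1.

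The annotation places 32 snoRNA genes inside the 8 host genes on the same strand, 10 in *Gas5*, 8 in *Snhg1*, 5 in *Snhg12*, 3 in *Snhg17*, 2 each in *Snhg3* and *Snhg5*, and 1 each in *Snhg6* and *Snhg8*. *Snord80* in *Gas5* and *Snora16a* in *Snhg12* are each annotated under 2 gene IDs at nearly the same position, and both entries are in these counts. Box C and box D letters were both found at the ends of 18 of them, a D box alone in 4, an ACA box in 6 and none of these in 4. An ACA box was counted only where exactly 3 bases followed it to the annotated end. The 3 snoRNA genes of *Snhg17* are among the last 4, but their annotated sequences end in the letters ACA, so they are not read as lacking this box. No read was counted on any of the 32 in any library. In the annotation 30 of them lie wholly within exons of some transcript of their host, so reads there could be counted as ambiguous, which was not tested. The kit captures poly(A) ends, which mature snoRNAs lack, and the counts are not read as snoRNA levels. Of all 1507 snoRNA genes in the files, 89 had reads, with 415 and 199 reads in the scrambled libraries against 182 and 233 in the knockdown.

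Genes that act with the members were read from the same fit, and each count below is to be set beside the 5.55% called and the 21.8% with an unadjusted p under 0.05 among all genes tested. Of 18 tested genes for snoRNP proteins and their assembly, *Rrp9*, a U3 snoRNP protein, fell (171 and 149 reads in the scrambled libraries against 85 and 75 in the knockdown, log2 fold change -0.81, adjusted p = 0.0152 from edgeR), and no gene rose. This 1 of 18 is close to the share called among all genes. The *Rrp9* call was lost in 6 of 13 alternatives, among them DESeq2 with a local fit (adjusted p = 0.0608), chromosome medians removed (0.275) and knockdown 1 left out (0.247). *Nop56*, a core box C/D protein, had 214 and 352 reads against 103 and 201 and missed the threshold (log2 fold change -0.65, adjusted p = 0.126 from edgeR), but was called lower with the replicate block (-0.69, adjusted p = 0.0296). The median of the 18 was 0.04, beside -0.00 over all genes tested. None of 12 tested genes of nonsense-mediated decay was called in edgeR or in DESeq2 with a local fit (median 0.08, 1 with an unadjusted p under 0.05), and the smallest p values were those of *Smg1*, the kinase that acts on UPF1 (0.46, adjusted p = 0.191 from edgeR), and *Upf3a* (-0.48, adjusted p = 0.258).

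Of 19 paraspeckle proteins none was called in edgeR or in DESeq2 with a local fit, 3 had an unadjusted p under 0.05, and their median was 0.11. *Nono*, *Sfpq* and *Pspc1*, which bind NEAT1 in the paraspeckle core, were at -0.06, 0.03 and -0.28. *Hnrnpk*, which acts on the choice of NEAT1 form, had 366 and 466 reads in the scrambled libraries against 536 and 478 in the knockdown, and its log2 fold change of 0.49 (adjusted p = 0.0364 from edgeR) was just under the fold threshold. *Dazap1* was at 0.44 (adjusted p = 0.109 from edgeR). Of 24 tested genes of nuclear speckles and of MALAT1 processing or stability none was called in edgeR or in DESeq2 with a local fit (median 0.05, 8 with an unadjusted p under 0.05). *Pop5* and *Rpp21*, subunits of RNase P, which cuts the MALAT1 end, were at 0.54 (adjusted p = 0.0628 from edgeR) and 0.48 (adjusted p = 0.0970).

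Among 14 tested of 36 other named lncRNAs, *Epb41l4aos* fell (40 and 68 reads in the scrambled libraries against 15 and 26 in the knockdown, log2 fold change -1.17, adjusted p = 0.0368 from edgeR). This call was lost in 5 of 13 alternatives, among them DESeq2 with a local fit (adjusted p = 0.178), chromosome medians removed (0.166) and knockdown 1 left out (0.347). *Zfas1*, which is known as a snoRNA host, had 358 and 398 against 136 and 260 reads (-0.70, adjusted p = 0.0788 from edgeR) and was called lower with the replicate block (-0.77, adjusted p = 0.0368). The median of the 14 was -0.08, and that of all 120 tested lncRNA genes, of which 5 were called higher and 3 lower, was 0.12. Of 159 tested protein-coding genes that host snoRNAs, 1 rose and 4 fell, with a median of 0.00. The gene that rose was *Csgalnact2* (0.73, adjusted p = 0.0497 from edgeR). Those that fell were the ribosomal protein genes *Rpl4* (-0.63, adjusted p = 0.0115) and *Rpl13a* (-0.87, adjusted p = 0.0373), *Gnl3*, which encodes the nucleolar protein nucleostemin (-0.58, adjusted p = 0.0306), and *Lrch2* (-0.96, adjusted p = 0.0401). In DESeq2 with a local fit *Rpl4* alone of these 5 was called. None of the 5 was called with chromosome medians removed or with knockdown 1 left out, and *Csgalnact2* was called in only 2 of 13 alternatives. Of 4 tested lncRNA genes that the annotation shows as snoRNA hosts beside the members, 1 was called lower, and this was *Epb41l4aos*. *AA465934* was at -0.52 (adjusted p = 0.0873 from edgeR).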

How the data were processed

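Direct RNA reads of 4 libraries were used, 2 scrambled and 2 knockdown, each library with its own file. The authors used guppy for basecalling, minimap2 2.17 for mapping to GRCm39 and HTSeq 0.9.1 for counting, and the deposited values are whole, unnormalized counts per gene. The annotation release, strand setting and overlap mode of the counting are not given in the sources used here. Reads without a gene (1.11% to 1.37% with no feature, up to 16.5% ambiguous) were kept out of library sizes. So were reads of too low alignment quality (22.7% to 23.8%) and reads that were not aligned (1.59% to 2.82%). Symbols, positions and snoRNA genes came from GENCODE vM39, in which 56017 of the gene IDs were found.

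Counts were compared in edgeR 4.0.16 (R 4.3.3) with the quasi-likelihood test after TMM scaling and filterByExpr, with Benjamini-Hochberg adjustment over 8670 genes. Normalized counts are TMM-scaled to an average library. A call needed an adjusted p below 0.05, a log2 fold change beyond 0.5 in size and a mean normalized count above 10, the thresholds of the study. Intervals of counts are exact 95% Poisson intervals and cover counting error only. The libraries within a group differed by more than counting error (chi-square per gene 2.54 in the scrambled group, 2.74 in the knockdown group).

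The members and gene lists were chosen with earlier results of these data known. Named are the members, *Hnrnpl*, the nearest tested neighbours, up to 5 called genes of each list and, where fewer than 2 were called, the 2 with the smallest p. *Bbs1*, *Nono*, *Sfpq*, *Pspc1*, *AA465934* and single cell type markers were named after their values were seen. The batch numbers follow the replicate numbers in the sample titles, and they pair the libraries of the groups. Over 8670 genes, the departures of scrambled 1 and knockdown 1 from the means of their groups correlated at -0.018. Alternatives were DESeq2 1.42.0 (Wald test, local and parametric fits), RLE factors or total counts, other filters, the replicate block, chromosome medians removed, mitochondrially encoded genes left out and each library left out. With 1 library left in a group, that library is assumed to vary like the other group. The fit was tested on simulated data. Transcript and exon counts were not analysed here.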

Additional observations from a re-analysis of the deposited data

How the results depend on the processing

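Over all genes, 202 were called higher and 279 lower. These counts were 80 and 148 in DESeq2 with a local fit, 44 and 71 with a parametric fit and 106 and 179 with chromosome medians removed. Leaving out 1 library gave 7 to 187 higher and 13 to 257 lower, and both lowest counts were those without knockdown 1. With the replicate block (batch number as a term) the counts were 204 and 280.

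Of the members, 1 was called higher. The count was 0 in DESeq2 with a parametric fit, 2 with chromosome medians removed and 0 to 1 without 1 library, where the 1 is *Neat1* without scrambled 2 and *Malat1* without knockdown 2. The count called lower was 0, and it was 1 (*Snhg5*) with no filter, with at least 10 counts in every library and with the replicate block, and 0 to 1 without 1 library. The block changed no other call of a member.

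Of protein-coding snoRNA hosts 1 was higher and 4 lower. DESeq2 with a local fit gave 0 and 1, chromosome medians removed 0 and 1, ribosomal protein genes left out 2 lower, and 1 library left out 0 to 1 higher and 0 to 7 lower. Of the snoRNP list 1 was lower, which became 0 in DESeq2 (local fit), 2 with the replicate block (*Nop56* added), 0 with chromosome medians removed and 0 to 1 without 1 library. Of other lncRNAs 1 was lower, which became 0, 2, 0 and 0 to 3 in the same settings (*Zfas1* added with the block). The cause of these differences was not tested.

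Changes of sign were seen only in host genes without a call. *Gas5* was at 0.022 with total counts, 0.0058 and 0.0028 in DESeq2 (local and parametric fit) and -0.47 to 0.37 without 1 library. *Snhg1* was at 0.021 with chromosome medians removed and -0.47 to 0.029 without 1 library. *Snhg8* was at -0.0035 with at least 10 counts, -0.0025 with the replicate block, -0.091 with chromosome medians removed and -0.25 to 0.23 without 1 library. Without 1 library *Snhg12* lay between -0.47 and 0.072 and *Snhg17* between -0.27 and 0.019. *Neat1* and *Malat1* stayed above 0 and *Snhg5* below 0 in every setting run.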
